A study of Mus musculus with 10 samples.

Results

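The Igf2r and Airn cluster is a group of imprinted genes on mouse chromosome 17. It was followed here through the 92 ATAC-seq peaks, of 423900 in all 4 deposited peak lists, whose summit lay in Igf2r, Airn, Slc22a2, Slc22a3 or Mas1 or within 5 kb of them. ATAC-seq marks open chromatin by the insertion of sequencing adapters by the Tn5 transposase. The groups were 3 Smchd1 del/del female, 3 Smchd1 fl/fl female, 2 Smchd1 del/del male and 2 Smchd1 fl/fl male libraries of neural stem cells, all of the C57BL/6 strain. The protein made from Smchd1 acts on chromatin and keeps genes silent, among them genes of the inactive X and of several imprinted clusters. Per the labels' protocols, all lines were derived at E14.5 from embryos with floxed Smchd1, and deletion was by a retrovirus with Cre and puromycin resistance, with harvest 7 days later. The labels give that protocol for every library, the fl/fl ones too, and do not say which vector, if any, the fl/fl cells were given. The free-text description of the male libraries calls them female, while their title and sex field call them male, and the title was followed.

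Each group was deposited as 1 peak list called on its pooled libraries. There is therefore no spread between replicates to set against a difference, and no test was run. The lists rested on 139318421 tags in del/del females, 144613215 in fl/fl females, 74674218 in del/del males and 91734730 in fl/fl males. They held 104316, 130103, 88159 and 101322 peaks on chromosomes 1 to 19, X and Y in that order. Peaks were ranked within each list by the authors' −log10 q, with rank 1 the strongest. To compare lists, each was shortened to its 88159 strongest peaks. Those equal-length lists ended at a −log10 q of 4.27 in del/del females, 6.59 in fl/fl females, 1.39 in del/del males and 4.52 in fl/fl males, lower in the del/del than in the fl/fl list of either sex. A start window, the 250 bases before to 50 after a gene start, held a peak of these lists at 8, 8, 8 and 7 of 9 neural stem cell marker genes with a listed start, in del/del females, fl/fl females, del/del males and fl/fl males. It did so at 2, 1, 1 and 1 of 6 trophoblast marker genes. In every list a start peak was found at 2 of 4 neuron and 1 of 3 microglia markers. The same held for 1 of 1 endothelium, 1 of 1 fibroblast and 0 of 1 oligodendrocyte markers. Over all 17491 protein-coding genes with a listed start the shares were 62.9%, 62.8%, 62.2% and 62.1%, in the same order of lists.

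In most tissues Igf2r is expressed from the maternal chromosome and the noncoding RNA Airn from the paternal one. Airn starts inside Igf2r, runs in the opposite direction past the Igf2r start, and silences Igf2r on its own chromosome. The region of the Airn start is the imprinting control region, methylated on the maternal copy. Slc22a2 and Slc22a3, genes of organic cation transporters, are imprinted in the placenta, where silencing in this cluster is known to depend on Smchd1. In cultured or differentiating neurons Igf2r is known to be expressed from both copies. ATAC-seq peaks carry no strand and here no allele, so a peak cannot be given to a parental copy or, in the stretch that Igf2r and Airn share, to either gene.

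The 5 genes lay between 12419972 and 12868150 on chromosome 17 of the mm10 build (GRCm38). Slc22a3 spanned 12419972 to 12507704 and Slc22a2 12584189 to 12628489. Igf2r, which encodes the receptor that clears insulin-like growth factor 2 and carries lysosomal enzymes, spanned 12682406 to 12769706. Airn spanned 12741311 to 12859884 and Mas1, a receptor gene of the angiotensin system, 12838841 to 12868150. The gene table used had no exons, so peaks are placed in genes without saying whether they are exonic or intronic. Positions along the cluster are given below as the distance of a peak summit from the Airn start, negative toward Slc22a3. Summits of 1 site can differ between lists, with a median range of 29 bp over the 15 sites in all 4 deposited lists and a wider one at some. The median summit is used.

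The sequences just before the starts of Igf2r, Airn and Slc22a3 are shown because open chromatin lay at the first pair of starts in every list, while the Slc22a3 start was reached in 1 list. They are the 250 bases before each start, 5′ to 3′ on the strand of the gene, from RefSeq (GRCm38.p6), at chr17:12769707-12769956 (minus strand) for Igf2r, chr17:12741061-12741310 (plus strand) for Airn and chr17:12507705-12507954 (minus strand) for Slc22a3. Capitals mark every GC box with the letters GGGCGG, every CCAAT box, every E-box with the letters CACGTG and every TATA box with the letters TATAAA on either strand.
Igf2r: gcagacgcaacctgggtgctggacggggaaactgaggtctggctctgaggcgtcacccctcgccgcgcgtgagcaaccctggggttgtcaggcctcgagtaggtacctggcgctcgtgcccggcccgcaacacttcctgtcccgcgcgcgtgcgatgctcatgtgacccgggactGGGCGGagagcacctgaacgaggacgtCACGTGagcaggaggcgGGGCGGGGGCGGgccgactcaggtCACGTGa
Airn: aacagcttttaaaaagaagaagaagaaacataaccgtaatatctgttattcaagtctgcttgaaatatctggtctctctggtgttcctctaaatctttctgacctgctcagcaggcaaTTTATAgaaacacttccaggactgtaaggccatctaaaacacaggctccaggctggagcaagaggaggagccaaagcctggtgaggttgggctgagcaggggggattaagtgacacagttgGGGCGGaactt
Slc22a3: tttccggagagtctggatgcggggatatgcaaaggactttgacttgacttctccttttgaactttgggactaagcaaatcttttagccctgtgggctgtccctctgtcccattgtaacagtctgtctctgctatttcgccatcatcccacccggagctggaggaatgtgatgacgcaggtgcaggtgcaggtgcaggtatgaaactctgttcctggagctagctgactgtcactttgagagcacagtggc

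The Igf2r sequence held 27 CpG dinucleotides, more than 91.8% of 27025 genes counted at 1 start each, and had a GC content of 69.2%. It held 3 GC boxes, a pair of them directly adjoining, and 2 copies of CACGTG. Both copies read TCACGTGA, a palindrome that holds the E-box core bound by factors such as USF and TFEB. At least 1 TCACGTGA stood before 0.759% of the 27025 starts, and 2 or more before 10 of them. CACGTG was found before 5.93% of starts and GGGCGG before 32.7%. The Airn sequence was of another kind, with 2 CpG dinucleotides, 45.6% GC, 1 GC box close to the start and 1 TATAAA on the other strand. TATAAA stood before 12.9% of starts. The Slc22a3 sequence held 5 CpG dinucleotides and none of the 4 motifs, and the median over all starts was also 5. The windows of Slc22a2 and Mas1, which no peak reached, held 6 and 2 CpG dinucleotides and 2 and 1 copies of CCAAT, found before 34.2% of starts. The peak at the Igf2r start covered all 250 bases in each of the 4 lists. The Airn peak covered the 144, 158, 148 and 138 bases nearest the start in del/del females, fl/fl females, del/del males and fl/fl males.

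Overlapping peaks of the 4 lists were joined into sites, and the cluster held 31. Of these, 15 had a peak in all 4 deposited lists, 5 in 3, 3 in 2 and 8 in 1. The deposited lists held 20 cluster peaks in del/del females, 30 in fl/fl females, 22 in del/del males and 20 in fl/fl males. All but 1 of the 8 sites found in a single list were in fl/fl females, the longest and deepest list. Only 1 of the 31 sites lay in Mas1, at 105.5 kb, and it had a peak in fl/fl females at rank 129586 of 130103. In the equal-length lists 24 sites remained, 14 of them in all 4. The other 7 had their peaks between ranks 90172 and 129586.

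**Figure D1:**
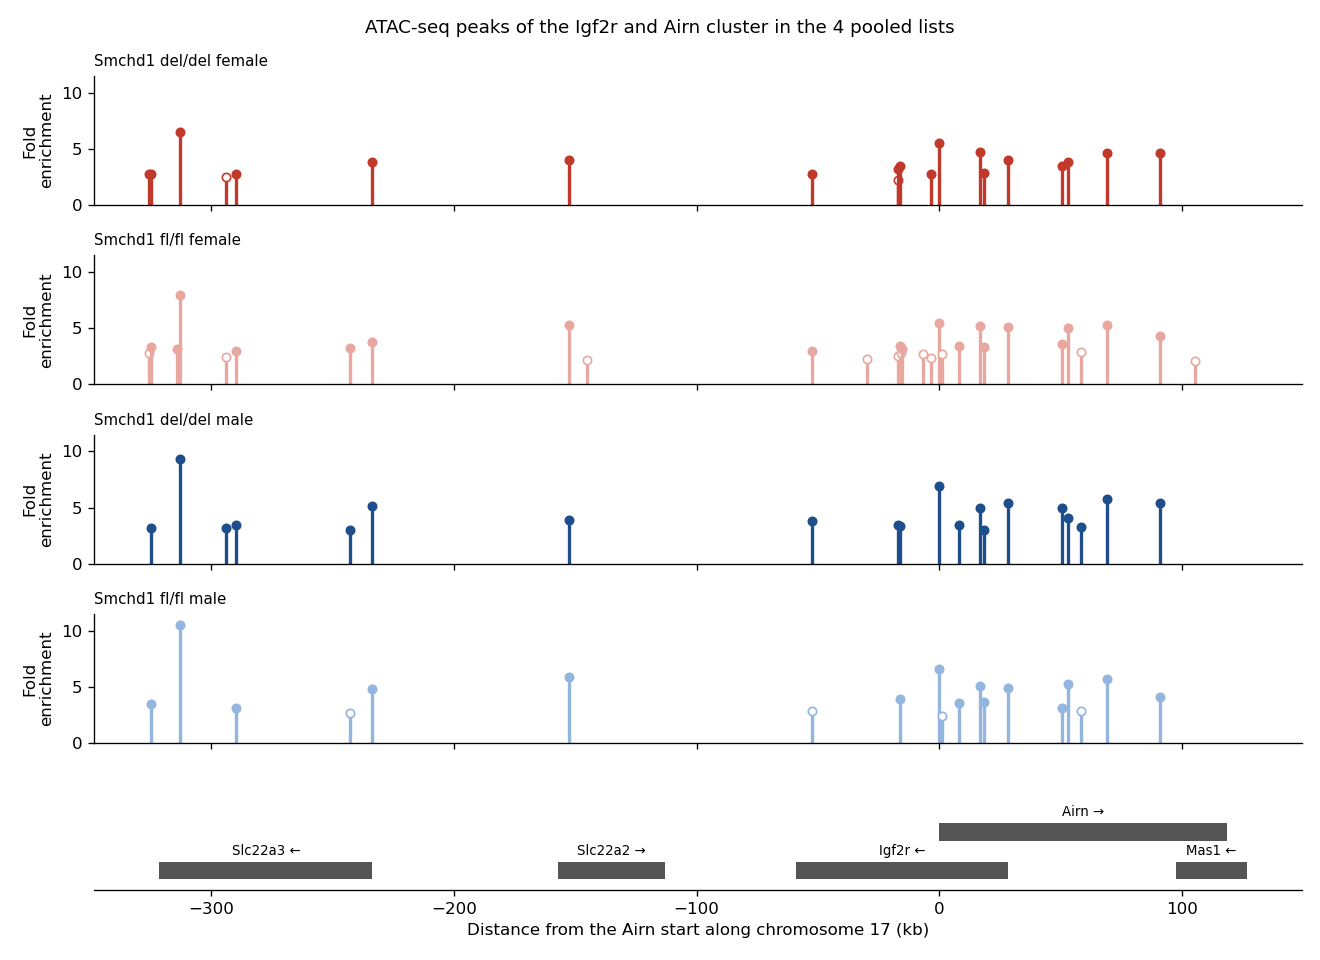
Fold enrichment (vertical axis, the authors' ratio of a peak over local background) of each cluster site in the 4 pooled lists against the distance of its summit from the Airn start (kb). Filled points are among the 88159 strongest peaks of the list and open points are weaker; bars below show the 5 genes, with arrows for their direction. The strongest site in each list is inside Slc22a3 at -312.7 kb, and the site at 0 kb is the Airn start.

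The Airn start, at the imprinting control region, carried the stronger of the peaks at the cluster's gene starts in every list. Its fold enrichment was 5.49 in del/del females and 5.50 in fl/fl females, and 6.88 in del/del males and 6.63 in fl/fl males. The peak ranked 18827 in del/del females against 23842 in fl/fl females, and 18642 in del/del males against 22241 in fl/fl males. Its rank was thus better in the del/del list of either sex, by 0.34 on the log2 scale in females and 0.25 in males. Over all pairs in the cluster's range of ranks, the median size of a shift in either direction was 0.26 in females and 0.29 in males. Summits fell within 24 bases of the annotated start, 21 bases before it in del/del females, 8 before it in fl/fl females, 24 after it in del/del males and 9 before it in fl/fl males.

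The Igf2r start carried a peak of 1000 bp in del/del females and 1014 bp in fl/fl females, and of 667 bp in del/del males and 696 bp in fl/fl males, where the median width over all peaks was 283 to 290 bp. In del/del males a second, narrower peak stood beside it in the same site. Its fold enrichment was 4.03 in del/del females against 5.12 in fl/fl females, and 5.37 in del/del males against 4.91 in fl/fl males. By rank it stood at 40878 in del/del females against 34604 in fl/fl females, and at 35161 in del/del males against 43639 in fl/fl males. The shift was -0.24 in females and 0.31 in males on the log2 scale, so the sexes went opposite ways at this start. Of 63060 pairs over all chromosomes, 56.5% shared their direction between the sexes, and a difference between the sexes was not tested.

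Both starts were modest among gene starts that carry a peak. Of 10994 protein-coding genes with a peak at a start in del/del females, 89.4% had a stronger one than Igf2r, and the shares were 86.8% in fl/fl females, 87.0% in del/del males and 91.1% in fl/fl males. The Airn peak was near the middle of the noncoding RNA genes with such a peak, with 51.0%, 57.4%, 52.1% and 57.0% of them stronger in the same order of lists. Of the protein-coding genes with a start peak, 68.9%, 76.9%, 70.4% and 74.0% had a stronger one than Airn. Of the noncoding RNA genes with one, 76.2%, 70.2%, 71.5% and 78.3% had a stronger one than Igf2r.

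Neighbouring genes outside the cluster had stronger start peaks. The start shared by Tcp1, a subunit gene of the cytosolic chaperonin, and Mrpl18, a mitochondrial ribosomal protein gene, had its peak at rank 513 in del/del females against 324 in fl/fl females, and 537 in del/del males against 746 in fl/fl males. The 7 neighbours with a listed start all had a peak at it in each list, the weakest of them at rank 9879. Elsewhere, Kcnq1ot1, the noncoding RNA that silences the Kcnq1 imprinted cluster, had a start peak at rank 3576 in del/del females against 4956 in fl/fl females, and 3188 in del/del males against 2835 in fl/fl males. Peg3, Plagl1, Mest and Grb10 also had start peaks in all 4 lists, and Meg3 had none. Snhg14 had one at rank 16779 in del/del females and 18329 in del/del males, and none in either fl/fl list.

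**Figure D2:**
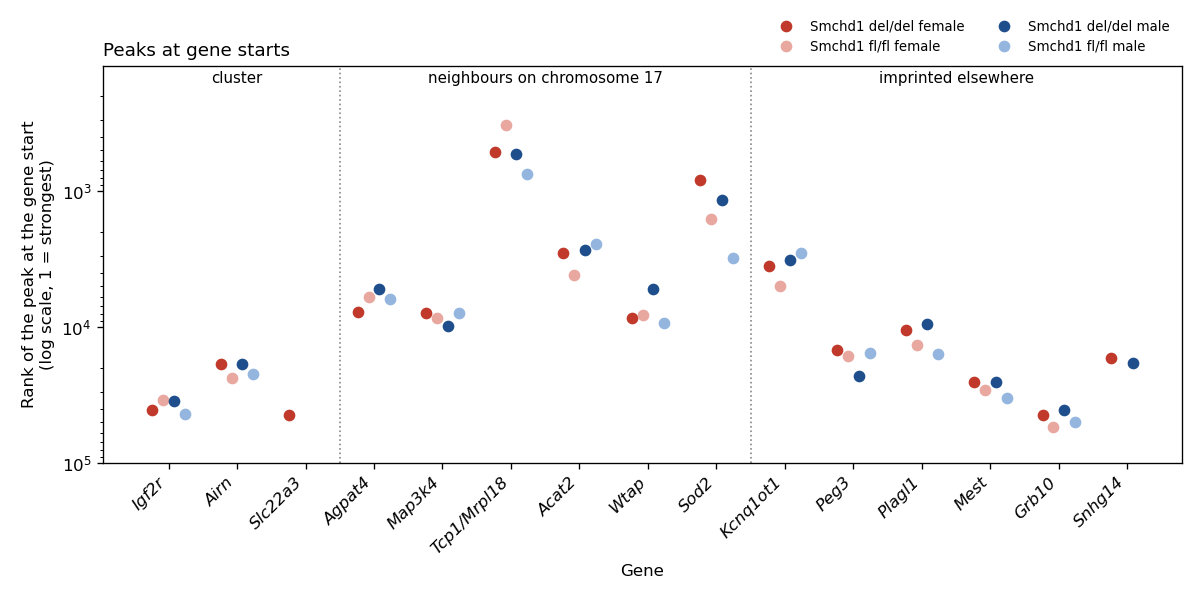
Rank of the strongest peak overlapping a gene start window (vertical axis, log scale, strongest at the top) for cluster genes, neighbours on chromosome 17 and imprinted genes elsewhere that had such a peak. Points are the 4 pooled lists. Igf2r lies between ranks 34604 and 43639 and Airn between 18642 and 23842, below all 4 points of each neighbour; Slc22a3 has a point in del/del females alone, where a wider peak reached its start window.

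Along the part of Igf2r that Airn does not share, peaks were weak. The site at -16.3 kb was in all 4 lists, with fold enrichments of 3.47 in del/del females and 3.45 in fl/fl females, and 3.38 in del/del males and 3.94 in fl/fl males. Its rank was better by 0.31 in del/del females and worse by 0.19 in del/del males, again in opposite directions. The site at -52.5 kb had fold enrichments of 2.76 in del/del females and 2.99 in fl/fl females, and 3.78 in del/del males and 2.84 in fl/fl males, and ranked 51797 in del/del males against 89396 in fl/fl males. The male values belong to different parts of the site. The del/del male peak was 233 bp wide with its summit at 12688556, and the fl/fl male peak 704 bp wide with its summit at 12688932. Del/del males had 2 peaks in this site.

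The site at -16.8 kb, from 12724408 to 12724716, was in both equal-length del/del lists and in neither fl/fl list. It ranked 58651 in del/del females and 106603 in the full fl/fl female list, with fold enrichments of 3.21 and 2.54. In males it ranked 64202 in the del/del list with a fold enrichment of 3.42, and the fl/fl list had no peak there. By the same rule, 3.5% of the 88159 del/del female peaks were present in both del/del lists and absent from the fl/fl list of the same sex. This site lies within 1 kb of the one at -16.3 kb, which was present in all lists. At -3.2 kb the rank was 76991 in del/del females against 112202 in fl/fl females, and at -15.2 kb a peak was found in fl/fl females alone, at rank 73321.

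Igf2r itself held more peaks than most genes of its size. Summits inside the gene numbered 8 in del/del females and 8 in fl/fl females, and 10 in del/del males and 6 in fl/fl males, in the equal-length lists. In del/del males the sites at -52.5 kb and at the Igf2r start counted 2 peaks each. The fl/fl male peak at -52.5 kb, at rank 89396, lay just past the end of the equal-length list. The median over 2237 protein-coding genes of 60 to 120 kb was 3 in each list, and 7.15%, 7.91%, 3.80% and 16.5% of them held more in del/del females, fl/fl females, del/del males and fl/fl males. Slc22a3, of about the same length, held 3, 5, 5 and 3 in the same order. Numbers of peaks inside Igf2r include sites that lie in Airn as well.

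In the stretch shared by Igf2r and Airn, a site at 16.8 kb was the strongest between the starts of the pair. Its fold enrichment was 4.74 in del/del females and 5.20 in fl/fl females, and 4.97 in del/del males and 5.11 in fl/fl males. It ranked better in the del/del list of either sex, by 0.16 in females and 0.11 in males. A site at 8.3 kb was in the equal-length lists of fl/fl females, del/del males and fl/fl males at ranks 69014, 69464 and 69087, and had no peak in del/del females.

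Beyond the Igf2r start, Airn alone held 5 sites of the equal-length lists, at 50.4, 53.0, 58.2, 69.3 and 91.1 kb, and among them lay the widest rank shifts of Airn, in either direction. The site at 91.1 kb, from 12832204 to 12832595, was stronger in del/del cells of either sex by rank. It had fold enrichments of 4.64 in del/del females and 4.29 in fl/fl females, and 5.44 in del/del males and 4.07 in fl/fl males. Its rank was 31724 in del/del females against 47502 in fl/fl females, and 34570 in del/del males against 57623 in fl/fl males, shifts of 0.58 and 0.74. Of 63060 peaks paired in both sexes, 3.72% shifted by at least 0.5 in this direction in both sexes, and of the 14 cluster sites 1 did.

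The site at 53.0 kb went the other way, with fold enrichments of 3.86 in del/del females against 4.99 in fl/fl females and 4.06 in del/del males against 5.24 in fl/fl males. Its shifts were -0.36 in females and -0.64 in males. The nearby site at 50.4 kb had 3.45 in del/del females against 3.60 in fl/fl females, and 5.01 in del/del males against 3.10 in fl/fl males. It ranked 39368 in del/del males against 81099 in fl/fl males, a shift of 1.04, and its shift in females was 0.17. The site at 69.3 kb hardly moved in rank, at 32329 in del/del females against 32312 in fl/fl females and 31820 in del/del males against 33953 in fl/fl males.

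Slc22a3, an organic cation transporter gene imprinted in placenta, held the strongest peak of the cluster. That site, at -312.7 kb and from 12428328 to 12428810, had fold enrichments of 6.49 in del/del females against 7.94 in fl/fl females, and 9.33 in del/del males against 10.5 in fl/fl males. It ranked 15102 in del/del females against 11991 in fl/fl females, and 10049 in del/del males against 7989 in fl/fl males, shifts of -0.33 in each sex. The size of these shifts depended on the ranking: they were -0.13 in females and -0.09 in males by pileup, and -0.82 and -1.07 by fold enrichment. The site lay inside the gene, 79.1 kb from the Slc22a3 start.

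Close to the Slc22a3 start, at -233.9 kb, fold enrichments were 3.86 in del/del females and 3.81 in fl/fl females, and 5.15 in del/del males and 4.79 in fl/fl males. The ranks were better in the del/del lists, by 0.37 in females and 0.27 in males. The peak summit lay 230 bases inside the gene in del/del females, where the peak was 693 bp wide and reached 22 bases before the start. In fl/fl females it was 263 bp wide, in del/del males 450 bp and in fl/fl males 449 bp, and it ended short of the start. The other sites in and beside Slc22a3 were weaker. The site at -242.7 kb had no peak in del/del females against rank 74529 in fl/fl females, and rank 80401 in del/del males against 97131 in fl/fl males. The site at -293.9 kb ranked 93624 in del/del females against 114131 in fl/fl females, and 76887 in del/del males with no peak in fl/fl males. At -314.1 kb a peak was found in fl/fl females alone, at rank 77626, and at -325.7 kb the rank was 78339 in del/del females against 95983 in fl/fl females, with no peak in males.

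Slc22a2, the other transporter gene imprinted in placenta, had no peak at its start and 1 site inside it in the equal-length lists, at -152.4 kb and 4.7 kb from the start, from 12588753 to 12589243. Fold enrichments there were 4.02 in del/del females against 5.32 in fl/fl females, and 3.86 in del/del males against 5.86 in fl/fl males. It ranked 41541 in del/del females against 32311 in fl/fl females, and 58761 in del/del males against 32807 in fl/fl males. The shifts were -0.36 in females and -0.84 in males. In females the site at 53.0 kb had the same shift to 2 decimals, and the order of these low shifts changed with the ranking. Sites with a shift of -0.3 or below in both sexes numbered 3 of 14 in the cluster, against 9.33% of all pairs. They were those at -312.7, -152.4 and 53.0 kb. By pileup 2 of 14 remained, without the site at -312.7 kb, and the site at -152.4 kb was close to the limit in females, at -0.301. The share of all pairs by pileup is not given.

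**Figure D3:**
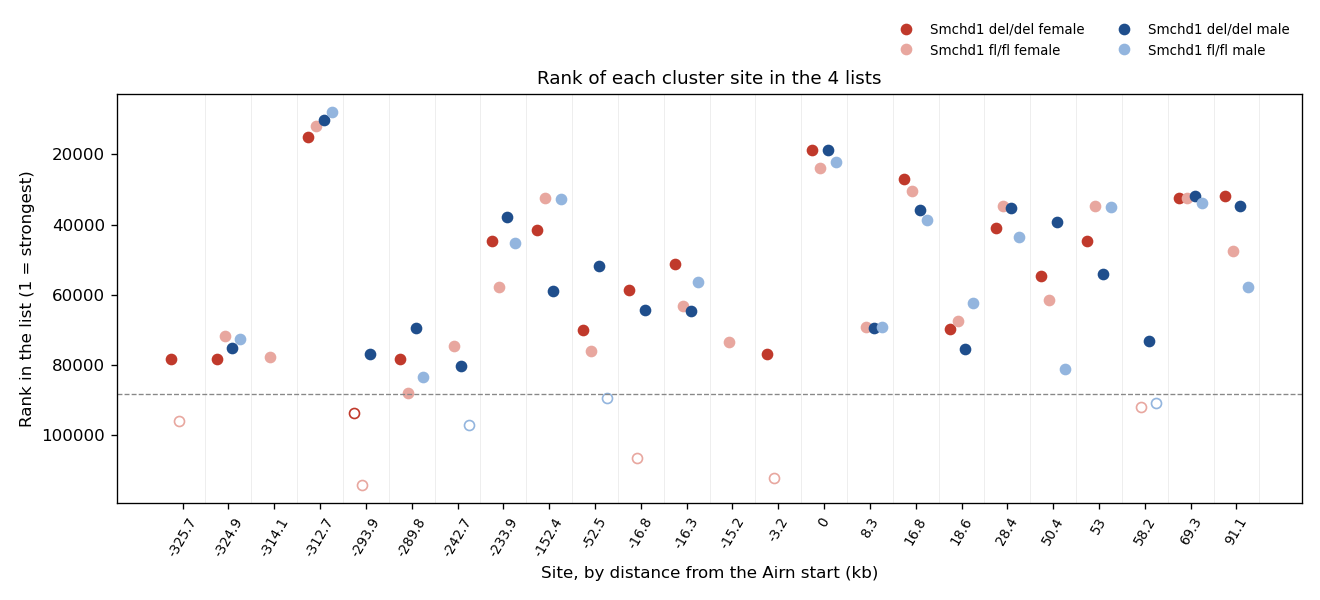
Rank (vertical axis, strongest at the top) of the 24 cluster sites that reach an equal-length list, ordered along chromosome 17 by distance from the Airn start (kb). Points are the 4 pooled lists, the dashed line is rank 88159 and open points lie beyond it. The site at 91.1 kb is higher in both del/del lists, and those at -152.4 and 53.0 kb are lower in both.

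None of the stronger peaks of the cluster was present in del/del cells and absent from fl/fl cells of the same sex, or the reverse. A peak was called gained if it was among the 44079 strongest of the del/del list and overlapped none of the 88159 of the fl/fl list, and lost in the reverse case. Of 7 cluster peaks in that class in del/del females and 7 in fl/fl females, 0 were gained and 0 lost, where 1.13% and 0.44% of all such peaks were. Of 8 in del/del males and 7 in fl/fl males, 0 were gained and 0 lost, against 0.837% and 1.09%. At these shares a set of 7 or 8 peaks would seldom hold a call, so the count of 0 says little about the cluster.

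The equal-length lists held 18 cluster peaks in del/del females and 19 in fl/fl females, a log2 ratio of -0.08 with a 95% exact binomial interval of -1.09 to 0.93. They held 22 in del/del males and 15 in fl/fl males, a log2 ratio of 0.55 (-0.46 to 1.60). These intervals cover counting error only and treat the lists as independent, although they share most peaks. In females 3 of 18 cluster peaks were in the del/del list alone, or 16.7%, and 4 of 19 in the fl/fl list alone, or 21.1%, against 15.3% and 16.9% of all peaks. In males 7 of 22, or 31.8%, were in the del/del list alone and 0 of 15 in the fl/fl list alone, against 16.9% and 18.7%. The strongest of the 7 ranked 51797, at -52.5 kb, where fl/fl males had a peak at rank 89396, just past the end of the equal-length list. The other del/del male peak of that site was counted among the 7 as well. A further 1 of the 7 was the narrower peak at the Igf2r start, a site that fl/fl males had too. At -242.7 and 58.2 kb fl/fl males also had peaks past that end, at ranks 97131 and 90841. No fl/fl male peak was found at -16.8 or -293.9 kb. In the lists as deposited, del/del males held 22 cluster peaks and fl/fl males 20. Lower depth, at 74674218 tags in del/del males against 91734730 in fl/fl males, and the lower q at the end of the list stood beside the larger number in del/del males. Their part in it was not tested.

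Peaks found in both lists of a sex were compared by the log2 ratio of fl/fl to del/del rank, positive where the peak ranked better in del/del cells. Over 15 cluster pairs in females the median was 0.12, from -0.36 to 0.58, and over all 72680 pairs it was -0.02. Over 15 cluster pairs in males it was 0.09, from -0.84 to 1.04, and over all 70942 pairs it was 0.01. A shift of at least 2-fold, 1 on the log2 scale, was reached by 0 of 15 in females in either direction, against 2.42% better and 1.84% worse over all pairs. In males 1 of 15 was better, the site at 50.4 kb, and 0 worse, against 2.26% and 2.41%. Ranked by pileup, the 50.4 kb site had a shift of 0.77 and no longer reached that size, and ranked by fold enrichment the -312.7 kb site reached it in the worse direction.

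The size of the shifts, regardless of direction, had a median of 0.24 in females and 0.27 in males in the cluster, and of 0.26 and 0.29 over all pairs in the same range of ranks. Between lists of the same genotype the cluster median was 0.23 for del/del females against del/del males and 0.11 for fl/fl females against fl/fl males, with 0.28 and 0.22 over all pairs of the same range. The cluster medians between genotypes were thus close to those of other peaks in its range of ranks.

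Of the 14 sites paired in both sexes, 6 ranked better in del/del cells of both sexes and 5 worse in both, 42.9% and 35.7%, against 26.8% and 29.7% of all pairs. At the others, 1 was better in females and worse in males, and 2 the reverse. The direction was shared at 11 of 14, or 78.6%, against 56.5% of 63060 pairs over all chromosomes. The 6 that were better were at the Airn start, 16.8, 50.4 and 91.1 kb, and at -233.9 and -289.8 kb in Slc22a3. The 5 that were worse were at 18.6 and 53.0 kb, at -312.7 kb, in Slc22a2 at -152.4 kb, and at -324.9 kb beside Slc22a3. Sites of both directions thus lay in Airn and in Slc22a3, and the neighbouring sites at 50.4 and 53.0 kb went opposite ways. The site at 18.6 kb had a shift of -0.05 in females, and by pileup 0.02. No difference between the cluster's share and that of all pairs was tested.

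**Figure D4:**
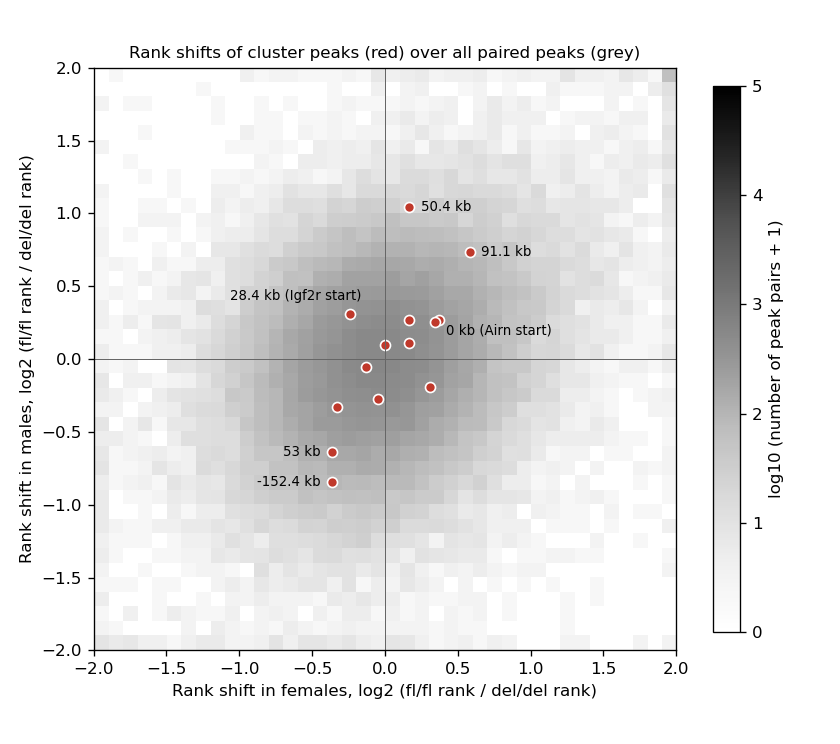
Rank shift in males (vertical axis) against females (horizontal axis), each as log2 of fl/fl rank over del/del rank, for the 14 cluster sites paired in both sexes (red) over all 63060 pairs (grey, shaded by log10 of their number plus 1; shifts beyond 2 are drawn at 2). The cluster sites lie within the cloud of all pairs; the site at 91.1 kb is high in both sexes and those at -152.4 and 53.0 kb are low in both.

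Other gene groups give the setting. The 9 listed neighbours of the cluster, among them Plg, Tcp1 and Map3k4, held 28 peaks in del/del females against 24 in fl/fl females, and 26 in del/del males against 20 in fl/fl males, with 0 gained or lost. Igf2r is part of the insulin-like growth factor and mannose 6-phosphate receptor system but is not counted in the list of it. The 12 listed genes held 77 peaks in del/del females against 75 in fl/fl females. They held 73 in del/del males against 75 in fl/fl males, with 0 gained or lost. Of these, 43, 39, 41 and 43 were among the strongest 44079 of their list, in the same order. At shares of 0.44% to 1.13% over all such peaks, counts of 0 say little about these genes or the neighbours. Igf2, the growth factor that Igf2r clears, had a weak start peak at rank 84241 in del/del females against 102422 in fl/fl females, and at 87735 in del/del males against none in fl/fl males. Igf1r, the receptor through which that factor signals, had one at rank 13777 in del/del females against 16655 in fl/fl females, and 9480 in del/del males against 15743 in fl/fl males. The 7 listed angiotensin genes, without Mas1, held 12 in del/del and 12 in fl/fl females, and 11 in del/del and 12 in fl/fl males. The 4 genes of the list of organic cation transporters, without Slc22a2 and Slc22a3, held 8 in del/del and 12 in fl/fl females. In males they held 13 in del/del and 8 in fl/fl lists. The 11 genes of other imprinted regions held 77 in del/del females against 57 in fl/fl females, and 76 in del/del males against 56 in fl/fl males. Snhg14, a noncoding RNA gene of the imprinted Snrpn region, held 43 of them in del/del and 22 in fl/fl females, and 40 in del/del and 23 in fl/fl males. Among the 24 peaks of these 11 genes in the strongest 44079 of del/del females, 4 were gained, all in Snhg14, where 1.13% of all such peaks were. Among 26 in del/del males 3 were gained, 2 in Snhg14 and 1 in Grb10, where 0.837% were. None of their 20 such peaks in fl/fl females or 18 in fl/fl males was lost. The neighbours had 12 such peaks in each list, and the difference between the cluster and Snhg14 was not tested.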

How the data were processed

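The libraries of a group were pooled by the authors before peak calling with MACS 2.1.0.20140616, which per the file headers ran without a control, moved reads 75 bp upstream, extended them to 150 bp and kept peaks below a q-value of 0.05. The pooled alignments are named as free of duplicates and mitochondrial reads. Bowtie2 2.2.5, Trim Galore 0.4.0 and the build mm10 stand in the submitters' processing notes. Peak pileup is the signal the authors deposited for each peak, not scaled to depth, and fold enrichment is their ratio over local background. The significance of each peak was deposited as −log10 p and −log10 q. These values rank and describe peaks within a list, and tag size differed between lists, from 53 to 63 bp.

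Peaks were ranked by −log10 q, with ties ordered by p, fold enrichment and position, and each list was reduced to its 88159 strongest. Overlap meant at least 1 shared base pair, and a pair was the strongest overlapping peak in both directions. Genes came from a RefSeq table of GRCm38.p6, in which all 83 listed genes were found, 1 of them by an older symbol. All sites of the 5 genes were eligible for description, and of other gene lists the counts, start peaks and gained or lost peaks of those that bear on the cluster. The members and lists were chosen with earlier results of these data known. The thresholds of 0.5 and 0.3 on shifts in both sexes were set after the values were seen. A gene left out of the lists of neighbours and transporters is not reported here. The rules for calls and shifts were checked on simulated peak lists with peaks removed or moved in rank, whose values are not given. Python 3.11.15, numpy 2.4.6, pandas 2.3.3, scipy 1.17.1 and matplotlib 3.10.9 were used. Alternatives changed the flank, ranking value, list length, threshold, overlap, margin and ties.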

Additional observations from a re-analysis of the deposited data

How the results depend on the processing

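Of 46 recomputed values for peak number, gained or lost peaks and median rank shift of the cluster, 44 stayed within the interval, range or count given for the reported value, which for peak number is a wide interval of about 1 log2 unit on either side. The median rank shift changed sign in 2 of them, to -0.12 in females in the strongest 44079 peaks and to -0.01 in males with a flank of 20 kb. Without the margin, all 88159 peaks of a list were candidates. Gained and lost cluster peaks together then numbered 7 in females and 7 in males, against 0 and 0 in the reported rule. In females 3 of 18 were gained and 4 of 19 lost, where 15.3% and 16.9% of all peaks were. In males 7 of 22 were gained and 0 of 15 lost, where 16.9% and 18.7% of all peaks were. The log2 ratio of cluster peak numbers of del/del over fl/fl females ranged from -0.58 to 0.06, and that of males from -0.17 to 0.58. The male ratio was below 0 at a −log10 q of at least 10, with 8 peaks in del/del and 9 in fl/fl males. With tied values at the end of a list left out, an alternative chosen after seeing the data, fl/fl females had 18 cluster peaks in place of 19. Of 59 single-site shifts under ranking by pileup or fold enrichment, 4 had the other sign, at 8.3 kb in males and at 18.6 and 69.3 kb in females, where the reported shifts were -0.01, -0.05 and -0.00. The -312.7 kb site in males had a shift of -1.07 when ranked by fold enrichment, past 2-fold. Leaving out libraries was not possible with pooled lists. No paired analysis was possible because each group was deposited as 1 list of pooled libraries. Depth differed between the lists, and its part in the number of weak peaks was not tested.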
